A study of Pan troglodytes with 50 samples.

Results

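In the HAR control library of a lentiviral massively parallel reporter assay, the human sequence of each human accelerated region (HAR) was read beside its chimpanzee counterpart. It was read in neural progenitors made from induced pluripotent stem cells of the chimpanzee line Pt2A at stage N2. Members are pairs of elements that share a HAR name and a tile number (tiles are the overlapping windows that cover a long HAR), 1 from each species. The rule gave 839 pairs from 606 HARs. They hold 1678 of the 2590 elements of the library and of its 2002 HAR alleles (1006 human and 996 chimpanzee alleles of 714 HARs). The other 324 HAR alleles had no partner with the same tile number, and every paired element was 171 bases long.

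HARs are stretches that changed little among vertebrates and then collected an excess of substitutions on the human lineage. Many lie far from coding sequence and near genes of development, where they can act as enhancers, sequences that raise transcription of a gene at a distance. In the reporter assay each element drives a transcript that carries a short barcode from integrated viral copies. The RNA count of an element's barcodes over their DNA count then measures the transcription that the element drives per integrated copy. Both alleles of a pair were read in the same cells.

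Per the labels, the cells were incubated for 4 days with an integrating virus, by which time they held an estimated 50 to 100 viral particles each. The labels name 3 replicate infections, with 3 RNA and 3 DNA libraries. RNA and DNA libraries were matched here by replicate number, although the labels do not say that such a pair came from 1 culture. Pt2A is 1 line, so the spread between cultures is that of infections and not of animals, and no other treatment of the cells is named. Total counts ran from 8649221 to 9464926 in the DNA libraries and from 24263262 to 25951194 in the RNA libraries. A paired allele had 54 to 100 barcodes (median 82), a DNA count per library of 360 to 33290 (median 2646) and an RNA count of 1169 to 149453 (median 6994.5). A further 4 groups of 3 cultures, from the lines Pt2A and Pt5C at stages N2 and N3 (glial progenitors per the labels), carried the HAR library, and 99.9% of the barcodes of the paired alleles occur there too. The Pt2A N2 group of that library stood apart: its allele differences correlated with those of the HAR control library at r = 0.126 over its own DNA and at 0.559 over N3 DNA, so its values below are given over both denominators where a result rests on them.

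Activity is log2 of RNA over DNA relative to the median of 120 elements named as negative controls, and the allele difference is the human minus the chimpanzee activity. A pair was called where 2 tests passed in the same direction at an adjusted p under 0.05. The first was the quasi-likelihood test of edgeR over the cultures, and the second a permutation test, two-sided, in which the barcodes of a pair were reassigned between its alleles. Both were required because all cultures received the same barcoded copies: the standard error (SE) over barcodes was 2.50 times the SE over cultures in the median pair.

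On this rule the human allele drove more RNA per copy in 61 of 839 pairs and less in 63, and these 124 called pairs came from 111 HARs. They are 14.8% of all pairs, 7.27% with human higher and 7.51% with human lower, so the calls were split almost evenly. Most differences were small. The median size was 0.078 on the log2 scale over all pairs and 0.25 over the called pairs, 517 pairs differed by less than 0.1, and the median signed difference was −0.0010. Only 15 pairs differed by 0.5 or more, 9 with human higher and 6 with human lower, and all 15 were called. 1 pair, tile 2 of 2xHAR.548, reached a difference of 1. The smallest difference called was 0.14 in size and the largest not called was 0.34.

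The edgeR test alone called 399 pairs (47.6% of those tested; 206 human higher, 193 lower) and the barcode permutation test 124, all of them among the 399. The permutation test gave 215 pairs at an unadjusted p under 0.05. In every called pair the 3 cultures of one allele lay above all 3 of the other, which held for 449 of all 839 pairs (53.5%). When odd-numbered and even-numbered barcodes were summed apart, all 124 called pairs had the same sign in both sets, against 64.2% of all pairs. The cultures and both sets of barcodes entered the calls, so these 2 comparisons describe the called pairs and do not test them. Over all pairs the differences of these sets correlated at r = 0.64, and those of any 2 cultures, which share their barcodes, at 0.852 to 0.867.

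Activity itself differed little between species as a whole. Paired human alleles had a median activity of 0.081 (range −0.58 to 2.54) and chimpanzee alleles of 0.078 (−0.50 to 2.67). The edgeR test over cultures placed 456 human and 460 chimpanzee alleles above the negative controls and 262 and 254 below. That is 54.6% of paired alleles above, where 52.9% of all 2590 elements were above and 33.3% below, and 42.5% of the 120 negative controls themselves were above their own median (51 above, 52 below). The split depended on the zero point: 916 above and 516 below became 745 and 691 with the centre of all elements, and 561 and 921 with the median of 150 elements named as permuted HARs, which lay at 0.16. The allele difference does not use the zero point.

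The most active pair, named after its values were seen, was 2xHAR.392 (chromosome 18, 7442533 to 7442703, GRCh37, 1-based like all positions here). Its human allele lay at 2.54 ± 0.045 and its chimpanzee allele at 2.67 ± 0.050 (SD, n = 3 cultures), and the pair was not called (−0.13 ± 0.050, adjusted permutation p = 0.509). HAR156 (chromosome 8, 116791662 to 116791832) came next. Its human cultures lay at 1.90, 1.88 and 1.90 and its chimpanzee cultures at 2.05, 2.11 and 2.10. The chimpanzee allele was above in each culture, and the difference of −0.19 ± 0.040 (SE over barcodes 0.059) was called (adjusted permutation p = 0.0159). It was −0.18 and no longer called without replicate 2 (adjusted permutation p = 0.0639).

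Among pairs called with human higher, both alleles were above the negative controls in 33, the human allele alone in 17 and neither in 11. Among pairs called with human lower, both were above in 31, the chimpanzee allele alone in 18 and neither in 14. In 9 and 12 pairs, respectively, the alleles were called on opposite sides of the controls. By this placement called pairs included alleles that differed in strength, alleles of which 1 exceeded the controls, and alleles that both stayed at or below them. The placement rests on the edgeR test over cultures alone, which leaves out the spread over barcodes, and it moves with the zero point. The same limit holds for every allele called above or below the controls in what follows.

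The human allele exceeded the chimpanzee allele most in 2xHAR.548, which lies between MITF, a transcription factor of pigment cells, and FOXP1, a transcription factor of brain, lung and heart development. In tile 2 (chromosome 3, 70655342 to 70655512) the 3 cultures gave 11763, 10850 and 11580 human RNA counts over 1306, 1301 and 1379 DNA counts. The chimpanzee allele gave 12899, 11977 and 13198 RNA counts over 3083, 2873 and 3409 DNA counts. The RNA counts were thus close, while the human copies were fewer. Activities were 1.81, 1.72 and 1.77 for human and 0.71, 0.72 and 0.65 for chimpanzee, which do not overlap. The difference was 1.07 ± 0.064 (SD, n = 3), a 2.11-fold higher human activity, with a 95% interval over barcodes of 0.92 to 1.23. Of all combinations of 1 human and 1 chimpanzee barcode, the human barcode was the higher in 89.0%. Single barcodes spread widely within each allele, with quartiles of 1.27 and 2.01 around a median of 1.64 for human and of 0.47 and 0.88 around 0.69 for chimpanzee, so the lower human quartile lay above the upper chimpanzee quartile.

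Tile 1 of 2xHAR.548 (70655294 to 70655464) shares 123 bases with tile 2 and was more active in both species. Its human cultures lay at 2.03, 2.04 and 2.03 and its chimpanzee cultures at 1.36, 1.33 and 1.30. The difference was 0.71 ± 0.031 (interval 0.55 to 0.86), so the human allele was again higher in all cultures. Both tiles had the smallest adjusted permutation p that the resamples could give, 0.000233, which 36 pairs shared.

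2xHAR.10 lies within PAX8, a transcription factor of thyroid and kidney development. In tile 1 (chromosome 2, 113992950 to 113993120) the human allele lay at 1.58, 1.53 and 1.55 and the chimpanzee allele at 0.62, 0.67 and 0.63. The groups were far apart: the difference was 0.91 ± 0.047 (1.88-fold, interval 0.80 to 1.03), and 93.7% of barcode combinations had the human barcode higher, the largest share among called pairs. In tile 2 (113993070 to 113993240), which shares 51 bases with tile 1, both alleles were high, at 1.39 ± 0.040 for human and 1.18 ± 0.052 for chimpanzee. Its difference of 0.21 ± 0.064 was called (adjusted permutation p = 0.0247) but lost its call without replicate 1 (0.18, adjusted permutation p = 0.0534) and with the median over barcodes (0.17, 0.0815). The tested region of this HAR is 291 bases in human and 310 in chimpanzee, so both tiles are among the pairs whose region differs between species. Tile 2 starts 120 bases into the first and 139 into the second, so its alleles cover shifted windows. The allele sequences were not available here, and the part of the region in either difference was not tested.

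Both tiles of 2xHAR.513 (chromosome 12) also had higher human alleles. In tile 2 (60916557 to 60916727) human cultures lay at 0.97, 1.02 and 1.02 and chimpanzee cultures at 0.11, 0.15 and 0.14, a difference of 0.87 ± 0.013 (1.83-fold). In tile 1 (60916496 to 60916666), which shares 110 bases with it, the difference was 0.64 ± 0.011. The chimpanzee allele of tile 1, at 0.02 ± 0.034, was not distinguished from the negative controls, while the human allele of both tiles exceeded them.

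2xHAR.445 (chromosome 20, 30753247 to 30753417) had human cultures at 1.50, 1.51 and 1.61 and chimpanzee cultures at 0.75, 0.76 and 0.71. Both alleles were active and the human allele was 1.74-fold higher (0.80 ± 0.085, SE over barcodes 0.071). 2xHAR.270 tile 1 (chromosome 6, 29555987 to 29556157) had human cultures at 0.86, 0.85 and 0.86 and chimpanzee cultures at 0.14, 0.11 and 0.07. Its difference of 0.75 ± 0.035 came with a tested region of 278 bases in human and 259 in chimpanzee. The remaining 6 of the 12 largest calls with human higher were 2xHAR.166 (0.54 ± 0.052), HAR106 tile 1 (0.50 ± 0.15), 2xHAR.530 (0.50 ± 0.0070), 2xHAR.458 (0.45 ± 0.016), 2xHAR.70 tile 3 (0.45 ± 0.024) and 2xHAR.513 tile 1. 2xHAR.458 had the widest spread over barcodes of the 12, with an SE of 0.135 over 56 human and 65 chimpanzee barcodes and an adjusted permutation p of 0.00964.

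In this second rank, human cultures of 2xHAR.166 (chromosome 18, 44929931 to 44930101) lay at 0.78, 0.74 and 0.73 and chimpanzee cultures at 0.19, 0.22 and 0.23. Those of 2xHAR.458 (chromosome 20, 11858332 to 11858502) lay at 0.44, 0.52 and 0.60 for human and 0.01, 0.06 and 0.13 for chimpanzee. In both HARs the alleles were called above the controls and did not overlap. Human cultures of HAR106 tile 1 lay at 0.47, 0.47 and 0.40 and chimpanzee cultures at −0.20, 0.06 and −0.02, so that its large SD came from the chimpanzee allele of replicate 1. In 2xHAR.530 (chromosome 10, 107100448 to 107100618) the human allele was called above the negative controls, at 0.28, 0.26 and 0.29, and the chimpanzee allele below them, at −0.22, −0.23 and −0.20. The same held in 2xHAR.70 tile 3 (chromosome 5, 164259986 to 164260156), with human cultures at 0.27, 0.29 and 0.26 and chimpanzee cultures at −0.16, −0.17 and −0.21.

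The human allele lay furthest below the chimpanzee allele in 2xHAR.518 (chromosome 14, 80280283 to 80280453), within NRXN3, a cell adhesion receptor of the synapse. The cultures gave 11167, 10557 and 11597 human RNA counts over 2454, 2310 and 2659 DNA counts, and 26087, 24968 and 26609 chimpanzee RNA counts over 3327, 3134 and 3525 DNA counts. Activities were 0.83, 0.85 and 0.82 for human and 1.61, 1.66 and 1.62 for chimpanzee. Both alleles were well above the controls, the groups did not overlap, and the chimpanzee allele was 1.73-fold higher (−0.79 ± 0.0085, interval −0.94 to −0.65). Barcode quartiles were 0.41 and 0.97 for human and 1.28 and 1.82 for chimpanzee and did not overlap. The human barcode was the higher in 11.5% of barcode combinations, the smallest share among called pairs.

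2xHAR.511 (chromosome 10, 103726663 to 103726833) had human cultures at 0.10, 0.07 and 0.11 and chimpanzee cultures at 0.77, 0.82 and 0.85. The human allele was close to the controls and the chimpanzee allele was not (−0.72 ± 0.044). 2xHAR.385 tile 2 (chromosome 7, 25357769 to 25357939) had human cultures at 0.14, 0.10 and 0.13 and chimpanzee cultures at 0.76, 0.73 and 0.69 (−0.60 ± 0.040). 2xHAR.401 (chromosome 17, 5667563 to 5667733) had human cultures at 0.10, 0.08 and 0.10 and chimpanzee cultures at 0.66, 0.63 and 0.69 (−0.56 ± 0.017). In these 3 HARs the human cultures lay between 0.07 and 0.14 and the chimpanzee cultures between 0.63 and 0.85.

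2xHAR.9 (chromosome 20, 708949 to 709119) was active in both species, with human cultures at 0.58, 0.57 and 0.58 and chimpanzee cultures at 1.11, 1.10 and 1.09 (−0.52 ± 0.0079). 2xHAR.556 (chromosome 3, 67788066 to 67788236) had human cultures at 0.02, 0.06 and −0.02, not distinguished from the controls, and chimpanzee cultures at 0.53, 0.50 and 0.55 (−0.51 ± 0.064). The other 6 of the 12 largest calls with human lower ran from −0.47 (2xHAR.39 tile 1) to −0.40 (2xHAR.313), with 2xHAR.411 tile 1, 2xHAR.430 tile 1, 2xHAR.329 tile 1 and 2xHAR.424 tile 1 between. In 4 of these, 2xHAR.39, 2xHAR.411, 2xHAR.329 and 2xHAR.424, the human allele was called below the negative controls (−0.31 to −0.11) and the chimpanzee allele above them (0.11 to 0.34).

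2xHAR.329 tile 1 (chromosome 10, 16500372 to 16500542) was the lowest of these human alleles, with cultures at −0.26, −0.38 and −0.28 against 0.12, 0.07 and 0.14 for chimpanzee. 2xHAR.411 tile 1 (chromosome 2, 49465129 to 49465299) had human cultures at −0.13, −0.16 and −0.11 and chimpanzee cultures at 0.34, 0.29 and 0.32, and its tested region was 467 bases in human and 473 in chimpanzee. 2xHAR.313 (chromosome 2, 205129739 to 205129909) differed from them in that both alleles were called above the controls. Its human cultures lay at 0.09, 0.06 and 0.09 and its chimpanzee cultures at 0.49, 0.43 and 0.51.

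These 24 largest calls, 12 in each direction, were kept under every alternative that was run. Over all 124 calls, 66 were kept under every alternative (29 human higher, 37 lower). The median over barcodes in place of their sum kept the fewest, 83, and called 19 others. Without 1 culture 95 to 107 were kept. Alternatives that changed only the fit over cultures kept all 124 and left the permutation test as it was.

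Differences that the cultures showed but the barcodes did not were frequent, 275 of the 399 pairs called by edgeR. The largest was HAR152 (chromosome 4, 113434826 to 113434996). Human cultures lay at 0.76, 0.58 and 0.60 and chimpanzee cultures at 0.33, 0.42 and 0.18. The cultures did not overlap (0.34 ± 0.16), yet the SE over barcodes was 0.23, the highest of all pairs, and the odd and even barcodes gave −0.14 and 0.59 (adjusted p = 3.42e-06 by edgeR and 0.42 by permutation). Its strongest human barcode held 12.2% of the human RNA, where the median allele's strongest barcode held 6.66%, and the human barcode was the higher in 48.4% of combinations. The median over barcodes reversed the difference to −0.047.

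The next 4 of this kind were 2xHAR.344 (−0.27 ± 0.065), 2xHAR.77 tile 2 (−0.27 ± 0.14), 2xHAR.375 tile 3 (−0.25 ± 0.055) and 2xHAR.412 (0.24 ± 0.13), with SEs over barcodes of 0.12, 0.11, 0.10 and 0.097. 2xHAR.412 (chromosome 2, 176990498 to 176990668) lies in the HOXD cluster, whose genes pattern the limbs and trunk, and was called without replicate 2 (0.31, adjusted permutation p = 0.0143) and with the median over barcodes (0.24, 0.0162). 2xHAR.375 tile 3 was called without the strongest barcode of each allele (−0.24, adjusted permutation p = 0.0279).

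Pairs named 2xHAR were called in 98 of 594 cases (16.5%, 49 in each direction) and pairs named HAR in 26 of 245 (10.6%, 12 human higher and 14 lower), against 14.8% of all pairs. The names mark separate lists of accelerated regions, and the median size of the difference was 0.080 in the first and 0.066 in the second. By the number of tiles that cover a HAR, 62 of 435 pairs with 1 tile were called (14.3%), 47 of 250 with 2 tiles (18.8%) and 15 of 154 with 3 or more (9.74%). The SE over barcodes was about the same in these groups, with medians of 0.068 to 0.072.

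By activity, 25 of 320 pairs with no allele above the negative controls were called (7.81%), 64 of 397 with both above (16.1%) and 35 of 122 with 1 above (28.7%). The last share rests on the same counts as the difference and is a description. Of 45 pairs whose tested region differed between species in length or offset 10 were called (22.2%). Of 7 pairs whose names give a restriction-site change in a single allele 0 were called, with 2 by edgeR or DESeq2 alone and 1 at an unadjusted permutation p under 0.05. These shares were not compared by a test.

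Of 171 HARs with 2 or more pairs, 49 had at least 1 call and 13 had 2. In 8 of the 13 the calls shared a direction: 2xHAR.10, 2xHAR.270, 2xHAR.513, 2xHAR.548 and HAR106 with human higher, and 2xHAR.152, 2xHAR.205 and 2xHAR.327 with human lower. In the other 5 the tiles of 1 HAR were called in opposite directions. Both calls held under every alternative in 3 of these 8, 2xHAR.513, 2xHAR.548 and 2xHAR.152, and in 1 of the other 5, 2xHAR.424. Tiles of a HAR overlap and so share sequence, and overlapping tiles are not independent. Over 89 neighbouring tiles that share 100 bases or more the differences correlated at r = 0.54, and over 144 that share fewer at 0.13, as a description.

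2xHAR.430 (chromosome 21) had opposite differences in neighbouring tiles. In tile 1 (16093057 to 16093227) the cultures gave −0.48, −0.43 and −0.36, and in tile 2 (16093102 to 16093272) 0.47, 0.28 and 0.34. The tiles share 126 bases, and the human allele lay at 0.03 ± 0.042 in tile 1 and 0.55 ± 0.084 in tile 2, where the chimpanzee allele lay at 0.46 ± 0.024 and 0.18 ± 0.035. In 2xHAR.424 (chromosome 14) tile 1 gave −0.41 ± 0.039, tile 2 0.02 ± 0.034 and tile 3 0.40 ± 0.066, so that the sign changed along the HAR. 2xHAR.39 (chromosome 2) gave −0.47 ± 0.068 in tile 1 and 0.24 ± 0.058 in tile 2, and 2xHAR.70 (chromosome 5) −0.25 ± 0.049 in tile 1 and 0.45 ± 0.024 in tile 3. In 2xHAR.97 (chromosome 1) tile 3 gave −0.22 ± 0.077 and tile 5 0.27 ± 0.013. Of these 5 HARs the other 4 each had a call that was lost in some setting. With the median over barcodes 2xHAR.430 tile 2 (0.24, adjusted permutation p = 0.0503) and 2xHAR.39 tile 2 (0.13, p = 0.0609) were no longer called. Nor was 2xHAR.70 tile 1 (−0.18), where limma on the differences of medians per culture gave an adjusted p of 0.145. Tile 1 of 2xHAR.70 (−0.24, adjusted permutation p = 0.0715) and tile 3 of 2xHAR.97 (−0.18, p = 0.143) were not called without replicate 3, nor tile 5 of 2xHAR.97 without replicate 2 (0.26, p = 0.0633).

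Tiles that nearly repeat each other showed how far 2 sets of barcodes on almost the same sequence agreed. Over 21 neighbours that share 160 bases or more the differences correlated at r = 0.39, with a median gap of 0.10. In 4 of them, singled out after their values were seen, at least 1 tile was called. HAR106 (chromosome 18) has tiles at 35294747 to 35294917 and 1 base further. Their differences were 0.50 ± 0.15 and 0.26 ± 0.038, and both were called, the second not with the median over barcodes (0.15, adjusted permutation p = 0.0634). 2xHAR.520 tile 1 was called at 0.38 and tile 2, which shares 162 bases in human, lay at −0.11. HAR161 gave 0.10 and −0.37, and 2xHAR.8 −0.12 and −0.34, and in these 2 HARs the tile with the lower value was called. The differences between such tiles were not tested.

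A list of 12 HARs, chosen with earlier results of these data known and holding 2xHAR.548, 2xHAR.10, 2xHAR.518 and 2xHAR.401, also held 2xHAR.142 (chromosome 14, 34048648 to 34048818), which lies in NPAS3, a gene for a neuronal transcription factor. Both alleles lay below the negative controls, human at −0.25, −0.23 and −0.28 and chimpanzee at −0.24, −0.20 and −0.23. The groups overlapped and the difference was −0.03 ± 0.023 with an interval of −0.12 to 0.06. 2xHAR.164 (chromosome 2, 133346944 to 133347114) gave −0.06 ± 0.078 (interval −0.19 to 0.06) and 2xHAR.170 (chromosome 5, 153640253 to 153640423) 0.03 ± 0.022 (−0.12 to 0.18). None of these 3 was called, and their intervals leave room for differences of up to 0.12 to 0.19 in size. 2xHAR.183 (chromosome 2, 11531871 to 11532041) was highly active in both species, at 1.34 ± 0.048 and 1.27 ± 0.018, and its difference of 0.07 ± 0.057 (−0.07 to 0.21) was not called either.

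2xHAR.20, near EN1, a homeobox gene of the midbrain and hindbrain, was covered by 4 tiles and none was called. Activity was highest in tile 4 (119067574 to 119067744 on chromosome 2), at 1.15 ± 0.062 for human and 1.07 ± 0.014 for chimpanzee. In tile 3 the human allele lay at −0.03, 0.04 and −0.01 and the chimpanzee allele at 0.18, 0.32 and 0.13. The cultures did not overlap, and the difference of −0.21 ± 0.072 passed edgeR (adjusted p = 0.000634) and not the permutation test (0.0869). Tiles 1, 2 and 4 gave 0.04 ± 0.036, 0.00 ± 0.093 and 0.07 ± 0.061.

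2xHAR.520 tile 1 (chromosome 3, 161591807 to 161591977) was called, with human cultures at 0.36, 0.27 and 0.34 and chimpanzee cultures at −0.04, −0.09 and −0.03 (0.38 ± 0.020). HAR183 tile 2 (chromosome 17, 6050406 to 6050576) was called at 0.27 ± 0.13, although both alleles lay below the controls, at −0.08 ± 0.055 and −0.35 ± 0.073, and the call was lost with the median over barcodes (0.15, adjusted permutation p = 0.161). HAR183 tile 1 gave 0.12 ± 0.016 and was not called (adjusted permutation p = 0.182).

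The permutation library, read in Pt2A at N2 with barcodes of its own, holds an all-human and an all-chimpanzee variant of 4 of the single-tile HARs, which gives a reading that shares 0 barcodes with the HAR control library. For 2xHAR.142, which differs at 7 sites there (A90G, C91T, G125T, T134C, A135G, T148C and A149G, chimpanzee base first), the human-minus-chimpanzee difference was 0.05 ± 0.045 (SD, n = 3, SE over barcodes 0.081). Positions are those in the element names, which do not say whether they count from 0 or 1. 2xHAR.164, with T43A, T73C, T76C and T92C, gave −0.03 ± 0.056 and 2xHAR.170, with C69T, T73G and T95C, 0.10 ± 0.041, with SEs over barcodes of 0.075 and 0.12. HAR34 (chromosome 9, 13751064 to 13751234; T59C, T64C and C112G) gave −0.06 ± 0.052 (SE over barcodes 0.088) where the HAR control library gave −0.17 ± 0.0095 (SE over barcodes 0.061), a call at an adjusted permutation p of 0.0494. That call was lost without replicate 1 (−0.17, adjusted permutation p = 0.107), without replicate 2 (−0.17, p = 0.0771), with the median over barcodes (−0.11, p = 0.254) and with barcodes counted in all 3 DNA libraries (−0.17, p = 0.0503). Each of the 4 values in 1 library lay within 2 SEs over barcodes of the other library's. Each of the 4 permutation-library values was also smaller in size than its own SE over barcodes. The comparison therefore cannot tell a repeated difference from no difference.

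The pairs were also read in the HAR library, from nearly the same barcodes but other infections. Allele differences were widest in the HAR control library: their SD over the 839 pairs was 0.163, against 0.122 in Pt5C N3, 0.120 in Pt2A N3, 0.0955 in Pt5C N2 and 0.116 in Pt2A N2 of the HAR library. They correlated over pairs at r = 0.758 with Pt5C N3, 0.662 with Pt2A N3, 0.643 with Pt5C N2 and 0.126 with Pt2A N2, the group of the same line and stage. With N3 DNA as denominator, r was 0.69 for Pt5C N2 and 0.559 for Pt2A N2, where the SD was 0.0953. Odd barcodes of either library against even barcodes of the other gave 0.359, 0.327, 0.266 and −0.059 in the order of the first 4 values. For Pt2A N2 over N3 DNA the value was 0.214. Odd against even barcodes within 1 group gave 0.273 in Pt5C N3, 0.371 in Pt2A N3, 0.184 in Pt5C N2 and 0.432 in Pt2A N2. Within the HAR control library the value was 0.64. Between libraries the value was higher than within the group for Pt5C N3 and Pt5C N2. It was slightly lower for Pt2A N3 and far lower for Pt2A N2 over its own DNA. Pairs are not independent replicates, and these are descriptions.

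Of the 124 calls, 114 had the same sign in Pt5C N3, 111 in Pt2A N3, 111 in Pt5C N2 and 73 in Pt2A N2, and 64 in all 4 (51.6%, against 43.0% of all 839 pairs). Of all 839 pairs, 77.9%, 74.0%, 73.3% and 60.2% had the sign of the HAR control library in these groups, in the same order. The 73 of 124 in Pt2A N2 thus did not exceed the share over all pairs. Over N3 DNA, Pt2A N2 had the same sign in 104 of the 124, against 71.4% of all 839 pairs. Then 92 calls had 1 sign throughout, against 427 of all 839 pairs. The sizes were smaller: the 61 pairs with human higher had a median of 0.27 in the HAR control library and 0.14, 0.11, 0.10 and 0.0055 in these groups, and the 63 with human lower −0.24 and −0.15, −0.14, −0.10 and −0.047. The medians in Pt2A N2 over N3 DNA were 0.094 and −0.093. These pairs were called in the HAR control library, so the smaller values elsewhere are a description.

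The difference of allele differences between libraries was tested in the same 2 ways. Against Pt5C N2, 68 of 839 pairs were called (8.1%), 35 with a higher and 33 with a lower human-minus-chimpanzee value in the HAR control library, and in 60 of the 68 the difference was larger in size in the HAR control library. Without HAR control replicate 1, 2 or 3 the count was 45, 40 or 38, and 65 without Pt5C N2 replicate 3. Of the 68, 48 were also called in the same direction with N3 DNA in place of N2 DNA. Against Pt2A N2, 228 pairs were called (27.2%), 123 higher and 105 lower, and in 149 of the 228 the difference was larger in size in the HAR control library. With N3 DNA in place of N2 DNA 132 were called, and 114 of the 228 remained in the same direction. Over all 839 pairs the median size was also larger in the HAR control library, 0.078 against 0.058 in Pt5C N2 and 0.062 in Pt2A N2. The counts of 60 and 149 therefore cannot be read as a trait of the called pairs. The line, the library and the infection differ together in the first comparison, and the library and the infection in the second, and these cannot be told apart.

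The pairs named above differed in how far they carried over. 2xHAR.518 kept its sign in all groups, at −0.79 ± 0.0085 in the HAR control library and −0.36 ± 0.013, −0.27 ± 0.059, −0.29 ± 0.037 and −0.54 ± 0.043 in Pt5C N3, Pt2A N3, Pt5C N2 and Pt2A N2 (SD, n = 3 each). 2xHAR.10 tile 1 did so too, at 0.91 ± 0.047 against 0.59 ± 0.048, 0.74 ± 0.011, 0.36 ± 0.11 and 0.26 ± 0.036 in the same order. 2xHAR.511 did not: −0.72 ± 0.044 in the HAR control library stood against 0.02 ± 0.043, −0.04 ± 0.10, 0.10 ± 0.040 and 0.06 ± 0.013, and the difference from both N2 groups was called. HAR106 tile 1 likewise lay at 0.50 ± 0.15 against −0.03 ± 0.091, −0.09 ± 0.057, 0.07 ± 0.041 and −0.01 ± 0.013. 2xHAR.401 reached −0.56 ± 0.017 in the HAR control library and −0.90 ± 0.071 in Pt2A N3, but −0.16 ± 0.027, −0.05 ± 0.037 and −0.10 ± 0.016 in Pt5C N3, Pt5C N2 and Pt2A N2. HAR183 tile 2 varied least of these in size, from 0.19 ± 0.046 in Pt2A N2 to 0.30 ± 0.10 in Pt5C N3. Over N3 DNA the mean Pt2A N2 differences of these 6 pairs were −0.45 for 2xHAR.518, 0.27 for 2xHAR.10 tile 1, 0.06 for 2xHAR.511, −0.03 for HAR106 tile 1, −0.08 for 2xHAR.401 and 0.16 for HAR183 tile 2, each with the sign it had over N2 DNA. 2xHAR.548 tile 2, the largest difference, was smaller in both N2 groups. Its HAR control value exceeded theirs by 0.79 in Pt5C N2 and by 1.03 in Pt2A N2 over its own DNA, and both were called. The value over N3 DNA is given below.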

How the data were processed

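The deposited files give a whole-number count for each 15-base barcode and the element that it tags. Molecular identifiers of 10 bases were attached early in PCR, per the labels' protocols. It is not stated there whether the counts are of identifiers or of reads, and how barcodes were matched to elements was not given in the sources used here. Coordinates come from the element names, and the submitters' processing notes name GRCh37. No gene annotation of that build was used; gene locations are background.

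For each library, an element's barcode counts were summed; a minimum of 10 barcodes on average in the DNA libraries removed no pair. Values per culture set RNA over the DNA of the same replicate number, scaled by TMM with a pseudocount of 0.5. Pairs were tested with edgeR 4.0.16 (R 4.3.3) in 1 fit over 839 pairs, as the allele by RNA or DNA term, and by permutation of barcodes (100000 resamples; in alternatives and between libraries 10000 where p was over 0.1), each with Benjamini-Hochberg adjustment over all pairs. SEs over barcodes are those of a ratio of sums, and intervals use variances moderated with limma 3.58.1 (95%). Group shares carry no test. SDs are over 3 cultures of 1 line. The scripts were tested on simulated data. DESeq2 1.42.0 was an alternative; numba 0.67.0, numpy 2.4.6 and pandas 2.3.3 (Python 3.11.15) did the rest.

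Named pairs are up to 12 called per direction by size, 5 that passed over cultures and not over barcodes, 3 per direction and HAR library group, and every pair of 12 HARs. These members, lists and tests were chosen with earlier results of these data known.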

Additional observations from a re-analysis of the deposited data

Results flagged for a closer look

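The allele difference in the HAR control library differed from that in the HAR library, by the test of the difference itself, in 228 pairs against Pt2A N2 and in 68 against Pt5C N2. Against Pt2A N2 the largest were 2xHAR.270 tile 1 (1.18), 2xHAR.548 tile 2 (1.03) and 2xHAR.458 (0.87) upwards and 2xHAR.556 (−0.99), 2xHAR.411 tile 1 (−0.93) and 2xHAR.511 (−0.78) downwards, as the HAR control minus the HAR library difference. With N3 DNA they were 1.05, 0.63, 0.27, −0.51, −0.54 and −0.78, all called. In 2xHAR.270 tile 1, 2xHAR.458, 2xHAR.556, 2xHAR.411 tile 1 and 2xHAR.511 the Pt2A N2 value had the opposite sign (−0.43, −0.42, 0.48, 0.48 and 0.06). Over N3 DNA these values were −0.30, 0.18, 0.01, 0.09 and 0.06, so that 2xHAR.458 no longer had the opposite sign and 2xHAR.556 lay near 0. Against Pt5C N2 they were 2xHAR.548 tile 2 (0.79), 2xHAR.270 tile 1 (0.73) and 2xHAR.445 (0.59) upwards and 2xHAR.511 (−0.81), 2xHAR.401 (−0.52) and 2xHAR.518 (−0.50) downwards. The part of the DNA libraries and of the infections in these differences was not tested.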

How the results depend on the processing

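Counts of calls depended most on the test. With the fit over cultures alone 399 pairs were called in place of 124, 206 human higher and 193 lower. Without 1 culture the count ran from 101 to 120, human higher from 50 to 61 and lower from 50 to 59. Deviations of RNA and DNA libraries of 1 replicate number were nearly uncorrelated (r = −0.018, 0.033 and 0.019, against −0.038 to 0.022 for unlike numbers). This cannot show whether such libraries came from 1 culture, since there may be no shared deviation to detect. The replicate block left 124 calls, the same pairs, 228 and 76 against Pt2A N2 and Pt5C N2, and 914 and 519 alleles above and below the controls. The block entered the edgeR fit only. The permutation test does not use it and alone called those 124 pairs. The count of 124 thus could not rise, and could fall only where edgeR lost one of them. Against Pt2A N2 the count was 132 with N3 DNA and 192 to 217 without 1 culture, and against Pt5C N2 38 to 65, with 45, 40 and 38 without HAR control replicate 1, 2 and 3. Alleles above and below the controls numbered 561 and 921 with permuted HARs as zero, an alternative added after seeing the data, and 879 to 909 and 467 to 480 without 1 culture. Signs reversed in pairs not called: HAR152 (−0.0474, median over barcodes), 2xHAR.170 (−0.0325, median over barcodes; −8.43e-05 without the strongest barcode) and 2xHAR.20 tile 2 (−0.1, median over barcodes; 0.0413 without replicate 1 and −0.0498 without replicate 2). The smallest difference called was 0.14.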
